A study of Mus musculus with 6 samples.

Results

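Thrombospondins are secreted calcium-binding glycoproteins of the extracellular matrix, and their transcripts were followed through the cells of the mouse aortic root and ascending aorta. The family has 5 genes, Thbs1, Thbs2, Thbs3, Thbs4 and Comp (cartilage oligomeric matrix protein), which are 5 of the 31055 features of the deposited count matrix, and they were chosen by symbol without regard to their level. Single-cell suspensions came from 6 female mice at 16 weeks of age on a 129 background. By their labels 4 were controls (CTL), of which 2 were Tgfbr1+/+ and 2 were Tgfbr1+/+; Wnt2CRE; EGFP-L10a, and 2 had Loeys-Dietz syndrome (LDS, Tgfbr1M318R/+), an inherited aneurysm disorder in which the model carries a missense allele of the type 1 TGF-beta receptor in every cell. The tracer of the second pair of controls marks only cells in which the Cre recombinase was active, by the study's methods those of the cardiac neural crest lineage. Each mouse gave 1 library, told apart in the matrix by a number from 1 to 6 that no label pairs with a mouse. LDS and control mice were therefore not compared, and no p-value is given. Levels and ratios are given for single libraries or as the lowest, median and highest over libraries unless said otherwise, while shares of cells, shares of UMIs, summed marker levels and counts of cells or UMIs pool the libraries.

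Thrombospondin-1 and thrombospondin-2 assemble as trimers and carry repeats that bind the receptor CD36, and thrombospondin-1 can release TGF-beta from its latent complex. Thrombospondin-3, thrombospondin-4 and COMP lack those repeats, assemble as pentamers and bind collagens and other matrix proteins. In the vessel wall these proteins are known as matricellular factors, which tune adhesion, collagen assembly and growth factor activity rather than bear load, and COMP is best known from cartilage and tendon.

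The libraries held 24972 cells after the quality filter, between 1863 and 6395 per library, with 18218282 to 38105145 UMIs (unique molecular identifiers, each marking 1 captured transcript) per library. Libraries 2 and 6 stood apart in depth, with medians of 9838 and 9615 UMIs per cell against 5572 to 7530 in the other 4. Transcripts of the tracer's fluorescent protein numbered 263, 201, 157 and 258 UMIs in libraries 1 to 4 and 8 and 6 in libraries 5 and 6, although the labels list the tracer in 2 mice. Of the barcode sequences, 1612 occurred in more than 1 library, 76 of them among the filtered cells. Clustering gave 10370 VSMC-like cells (vascular smooth muscle cells), 13483 fibroblast-like, 570 endothelial-like and 444 leukocyte-like cells, and 105 cells led by T cell genes stayed unnamed. The summed level of 7 VSMC markers was 64863 CPM (a gene's UMIs per 1e6 UMIs of the group of cells) in VSMC-like cells against 2450.2 CPM in fibroblast-like cells, and that of 7 fibroblast markers was 28401 CPM against 2414 CPM in the reverse order. Fewer transcripts per cell and fewer expressing cells are both contained in a CPM value, so shares of cells with a UMI are given beside it.

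The 5 genes lie on 5 chromosomes in mm10. Thbs1 spans chr2:118111876-118127133 on the plus strand, Thbs2 chr17:14665500-14694235 on the minus strand, Thbs4 chr13:92751590-92794818 on the minus strand and Comp chr8:70373558-70382066 on the plus strand. Thbs3 spans chr3:89215180-89226837 on the plus strand, within the bounds of Mtx1, which runs on the minus strand from 89209081 to 89227088. Whether reads were counted by strand is not given in the sources used here, so Thbs3 counts could include reads from Mtx1. Promoter windows of 300 bases, from 250 bases before the start to 50 after it, were read from RefSeq for the GRCm38.p6 assembly, which is mm10, and 3 of the 5 members matched (Thbs2, Thbs3 and Thbs4). Transcripts of these 3 genes had their highest medians in 3 different fibroblast-like subclusters (F3, F2 and F6, described with the results). Whether the motifs bear on those levels was not tested. The letters of the TATA box (TATAAA), of the box known as CCAAT after its letters, and of the GC box (GGGCGG), searched on both strands, are in capitals. The windows are chr17:14694213-14694512 (minus strand), chr3:89214930-89215229 (plus strand) and chr13:92794769-92795068 (minus strand), each written 5′ to 3′ along its gene.

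Thbs2: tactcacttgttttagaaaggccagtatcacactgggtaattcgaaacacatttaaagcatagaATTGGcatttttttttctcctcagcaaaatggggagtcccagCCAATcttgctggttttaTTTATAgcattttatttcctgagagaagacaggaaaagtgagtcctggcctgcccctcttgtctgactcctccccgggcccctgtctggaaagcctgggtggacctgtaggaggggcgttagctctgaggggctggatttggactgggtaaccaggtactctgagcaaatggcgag
Thbs3: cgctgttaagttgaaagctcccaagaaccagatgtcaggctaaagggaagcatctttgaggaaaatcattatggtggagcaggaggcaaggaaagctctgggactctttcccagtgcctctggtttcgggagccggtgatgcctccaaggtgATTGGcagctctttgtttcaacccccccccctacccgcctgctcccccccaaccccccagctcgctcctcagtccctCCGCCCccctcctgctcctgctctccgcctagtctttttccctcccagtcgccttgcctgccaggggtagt
Thbs4: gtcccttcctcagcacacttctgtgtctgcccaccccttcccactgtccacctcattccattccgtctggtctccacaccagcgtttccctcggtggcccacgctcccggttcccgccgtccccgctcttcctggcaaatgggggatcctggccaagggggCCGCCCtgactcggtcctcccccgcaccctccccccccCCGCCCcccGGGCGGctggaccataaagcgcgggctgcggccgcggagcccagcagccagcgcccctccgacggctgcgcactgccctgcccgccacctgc

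The Thbs2 window held TATAAA on the opposite strand at −126 to −121 bases from the start. It held CCAAT at −186 to −182 on the opposite strand and at −144 to −140 on the gene's strand. Thbs3 held CCAAT at −98 to −94 and GGGCGG at −21 to −16, both on the opposite strand. Thbs4 held GGGCGG at −89 to −84 and −51 to −46 on the opposite strand, at −42 to −37 on the gene's strand, and no CCAAT. Among 32851 promoter windows of the same length, TATAAA was found in 13.6%, CCAAT in 37.4% and GGGCGG in 35.7%. The AP-1 site (TGACTCA or its reverse complement TGAGTCA, 5.2% of windows) and the CArG box (1.63%) were in none of the 3 windows, which says only that those letters were absent from them. No motif overlapped another.

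Across the cell classes, Comp, Thbs2 and Thbs3 transcripts were most abundant in fibroblast-like cells and Thbs4 had its highest median there, whereas Thbs1 was spread over fibroblast-like, endothelial-like and VSMC-like cells. The fibroblast-like cells held 95.2% of all Comp UMIs, 96.9% of Thbs4, 80.9% of Thbs3 and 78.5% of Thbs2, but 62.2% of Thbs1, while VSMC-like cells held 34.6% of Thbs1. The order of the members in fibroblast-like cells, from UMIs counted at transcript 3′ ends, which do not scale with length, was Comp, Thbs1, Thbs2, Thbs3 and Thbs4, with overlapping ranges for Thbs1, Thbs2 and Thbs3.

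Comp was present at 352, 441 and 666 CPM (lowest, median and highest library) in fibroblast-like cells and at 10.1, 17.3 and 45.4 CPM in VSMC-like cells. These ranges did not overlap. By a rule of a median log2 ratio of at least 1 in the same direction in every library, 13.6% of the 8734 genes with at least 10 CPM were higher and 9.30% lower in fibroblast-like cells, and Comp, Thbs2 and Thbs3 were higher among the 4 members that reached 10 CPM, which Thbs4 did not. After every cell was thinned to 3000 UMIs, 21.2% of fibroblast-like cells (95% interval 20.5 to 22.0%, exact binomial, counting error only) and 2.96% of VSMC-like cells (2.63 to 3.31%) held a Comp UMI, beside 2.63% of leukocyte-like cells (1.27 to 4.79%), which should lack it, with median depths of 6114, 7205 and 5621.5 UMIs per cell before thinning. The share over all VSMC-like cells lay within the leukocyte-like interval, but it joins 1.80% of VSMC1-like cells (1.52 to 2.12%) and 8.27% of VSMC2-like cells (7.02 to 9.66%), subclusters described with the smooth muscle results. The VSMC2-like share lay above the leukocyte-like interval. Endothelial-like cells gave 5.77% (3.73 to 8.46%), an interval that includes the VSMC2-like share.

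Thbs2 and Thbs3 had similar levels in each of the large classes. Thbs2 was at 49.7, 69.2 and 99.2 CPM in fibroblast-like cells and at 17.0, 20.0 and 27.3 CPM in VSMC-like cells. Thbs3 was at 41.3, 63.1 and 88.5 CPM against 11.2, 14.2 and 28.1 CPM. For both genes the 6 fibroblast-like values lay above the 6 VSMC-like values. Thinned shares of cells were 15.8% and 5.98% for Thbs2 and 18.5% and 5.21% for Thbs3, where leukocyte-like cells gave 1.58% (0.582 to 3.40%) and 1.05% (0.288 to 2.67%). Both VSMC-like shares lay above the leukocyte-like intervals.

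Thbs1 stood at 68.4, 115 and 217 CPM in fibroblast-like cells, at 52.3, 73.6 and 116 CPM in VSMC-like cells and, in the 5 libraries with at least 20 such cells, at 13.3, 90.3 and 182 CPM in endothelial-like cells. The 3 ranges overlapped. Leukocyte-like cells gave 0, 34.8, 8.82 and 11.9 CPM in libraries 2 to 5 but 202 and 235 CPM in libraries 1 and 6, and the 5 cells with the most held 63.7% of all Thbs1 UMIs of the class. Thinned shares were 12.04% of fibroblast-like, 9.89% of VSMC-like, 12.02% of endothelial-like and 6.05% of leukocyte-like cells. Among the 2 clusters of endothelial-like cells, Thbs1 was at 16.9, 52.6 and 73.0 CPM in the larger (336 cells) and, in 3 libraries with enough cells, at 68.1, 166 and 265 CPM in the smaller (234 cells).

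Thbs4 was the scarcest member. It had 902 UMIs in fibroblast-like cells, where it was at 0.712, 6.68 and 18.5 CPM, and 7 UMIs in 6 VSMC-like cells, a ratio of 116 of the summed levels (95% 55.9 to 288, counting error only). The libraries differed, and in library 6 the levels were closer, at 0.712 CPM (6 UMIs) in fibroblast-like and 0.338 CPM (3 UMIs) in VSMC-like cells. Endothelial-like cells had 22 UMIs, 14 of them in 1 cell, and the fibroblast-like level was 1.48 times theirs (0.973 to 2.38), an interval that includes 1. Of 444 leukocyte-like cells 0 had any, which allows a share of cells with a UMI of up to 0.676% (3 counts of the total). In fibroblast-like cells 97.1% of Thbs4 UMIs were in the 1% of cells with the most, against 9.25% for Thbs3, the most evenly spread member. These shares also depend on how many of the 13483 cells held a UMI, which was 161 for Thbs4 and 4433 for Thbs3.

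**Figure D1:**
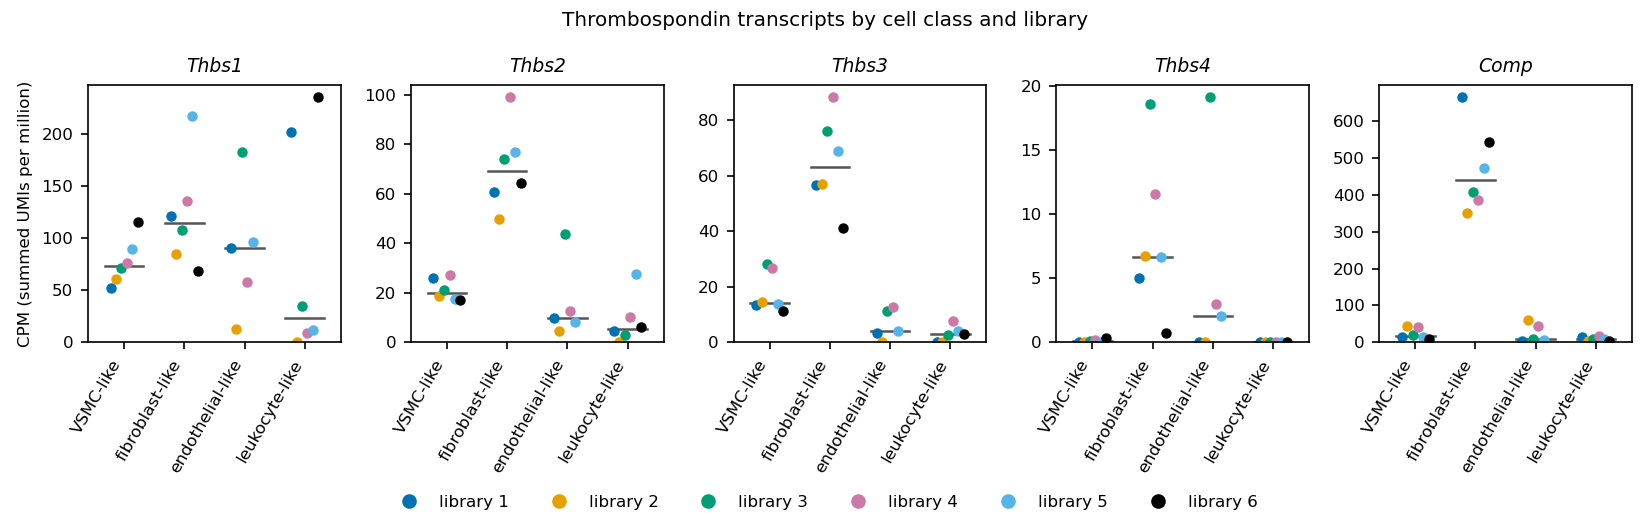
Level of each thrombospondin gene (CPM, linear axes of different height) in the cell classes, with 1 point per library with at least 20 cells of that class and a bar at their median. Comp, Thbs2 and Thbs3 points of fibroblast-like cells lie above those of VSMC-like cells, and Thbs1 points overlap.

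Taken within each library, the fibroblast-like over VSMC-like log2 ratio was 4.70 for Comp (2.95 to 5.74), 1.93 for Thbs3 (1.44 to 2.31) and 1.83 for Thbs2 (1.23 to 2.12), each higher in 6 of 6 libraries. For Thbs1 it was 0.72, higher in 5 libraries and lower in library 6 (−0.76). Thbs1 met the rule in neither direction. Without the deeper libraries 2 and 6 the ratios were 4.70 for Comp, 1.91 for Thbs3, 1.83 for Thbs2 and 1.02 for Thbs1, each higher in 4 of 4 libraries.

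Within the fibroblast-like cells, the members divided over different subclusters. The cells were clustered again without the members and the gene lists used below, and gave 13 subclusters, of which the smallest, F12, had 52 cells, glial genes and no library with 20 cells. Subcluster F9 was led by the smooth muscle genes Myh11, Cnn1 and Kcnmb1 and 37.0% of its cells were marked as doublets, and it had medians of 140 CPM of Thbs1 and 174 CPM of Comp.

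The clearest concentration was in F6, a subcluster of 787 cells (27 to 251 per library) picked for the highest Chad and Cilp2, which encode the cartilage matrix proteins chondroadherin and cartilage intermediate layer protein 2. It held 40.1% of all Comp UMIs, 75.0% of Thbs4 and 26.9% of Thbs1 while making up 3.15% of all cells. Comp was at 4969, 1784, 2133, 1601, 3180 and 6470 CPM in libraries 1 to 6 of F6, and at a median of 265 CPM in the other fibroblast-like cells. Every F6 value was above the range of every other subcluster, whose highest median was 498 CPM in F5 (Cytl1, Cst6 and Pthlh). The same rule was applied to F6 over the other fibroblast-like cells, for the 8461 genes with at least 10 CPM in either group. Of these, 2.14% were higher, among them Thbs1, Thbs4 and Comp, and 4.31% were lower, among them Thbs3. Thbs4 reached 10 CPM only in F6, so it could enter this count only through F6. A cell of F6 held up to 415 Comp UMIs, and 355 cells held at least 10.

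Thbs1 was at 1073, 481, 472, 689, 1225 and 688 CPM in the same libraries of F6 against a median of 72.1 CPM in the rest. Thbs4 was at 6.40, 78.2 and 173 CPM (lowest, median and highest) against 2.22 CPM, where the lowest value is that of library 6 and rests on 2 UMIs in 27 cells. Thbs4 UMIs were in 14.1% of F6 cells, a share given before thinning, as are those of the other fibroblast-like subclusters below. Thbs3 went the other way and was at 12.8, 27.4 and 51.6 CPM in F6 against 66.3 CPM. Thbs2 was at 119, 52.4, 156, 163, 97.6 and 467 CPM in F6 against 61.9 CPM, so that library 6 was apart from the others, and 91 of its 146 Thbs2 UMIs in F6 were in 1 cell.

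The within-library log2 ratio of F6 over the other fibroblast-like cells was 5.12 for Thbs4 (3.41 to 6.25), 3.31 for Comp (2.58 to 4.36), 3.25 for Thbs1 (2.68 to 3.95) and 0.93 for Thbs2 (0.08 to 3.25), each higher in 6 of 6 libraries, and −1.51 for Thbs3 (−1.72 to −0.61), lower in 6 of 6. The members had no part in forming or picking F6, but the genes that formed it were measured in the same cells, so these ratios describe it and are no test. Without libraries 2 and 6 they were 5.37 for Thbs4, 3.31 for Comp, 3.25 for Thbs1, 0.93 for Thbs2 and −1.51 for Thbs3.

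F6 also held transcripts of other cartilage matrix proteins. Of cartilage matrix and Comp partner genes, 15 had at least 10 CPM in F6 or in the other fibroblast-like cells. In F6, 12 of them were higher in every library and 1 was lower, with a median log2 ratio of 2.72. Over all genes 6.45% were higher in every library, 18.1% were lower and the median was −0.11. Chad and Cilp2 are among the 12 and chose the subcluster. Col9a1 and Col11a1, which encode chains of the cartilage collagens IX and XI, were at 19.4 and 57.1 CPM in F6 against 1.91 and 7.35 CPM in the other fibroblast-like cells. Fmod (fibromodulin) and Prelp, small proteoglycans that bind collagen, were at 542 and 1678 CPM against 164 and 447 CPM. Matn2, a matrilin, was the lower gene, at 61.8 CPM against 223 CPM.

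Outside F6 each trimer gene had its own place. Thbs2 was highest in F3 (964 cells led by Igfbp3, Tmem215 and Ptn), at 120, 213 and 310 CPM, with a UMI in 51.2% of cells, followed by F7 (Ccl7, Cxcl14 and Ccl8) at 87.1, 151 and 236 CPM, F6 and F2, and the ranges of these 4 overlapped. Thbs1 after F6 was highest in F4 (823 cells led by Cd74, H2-Eb1 and H2-Aa), at 82.8, 244 and 610 CPM, with a UMI in 42.4% of cells and a range that overlapped that of F6. Both were low in F0, the largest subcluster (3424 cells led by Colec11, Cpz and Cpxm2), with Thbs1 at 8.11, 12.4 and 44.2 CPM and Thbs2 at 9.62, 15.5 and 28.8 CPM. Against the other fibroblast-like cells of the same library, F0 had a log2 ratio of −3.28 for Thbs1 (−4.40 to −2.51) and −2.65 for Thbs2 (−3.00 to −1.58), lower in 6 of 6 libraries, whereas its Comp level of 420, 486 and 584 CPM was the third in order.

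Thbs3 had the smallest range of subcluster medians relative to the lowest. It was highest in F2 (1820 cells led by Dpp4, Basp1 and Dact2), at 69.0, 117 and 168 CPM, with a UMI in 48.0% of cells, and lowest in F4, at 5.11, 12.8 and 34.2 CPM. Among the subclusters between, from F6 at 27.4 CPM to F7 at 91.6 CPM, neighbours in the order had overlapping ranges over libraries. In F4 the log2 ratio to the other fibroblast-like cells was −2.46 for Thbs3 (−3.14 to −1.21) and 0.95 for Thbs1 (0.32 to 3.08), in the same direction in 5 of 5 libraries, so that Thbs1 was high and Thbs3 low in F4 as in F6. F2 had the reverse, with 0.97 for Thbs3 (0.81 to 1.42) and −2.85 for Thbs1 (−3.68 to −1.86). Thbs4 outside F6 exceeded a median of 2 CPM only in F11 (313 cells led by Tfap2b, Mia and Pax9), at 0, 9.32 and 47.6 CPM.

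**Figure D2:**
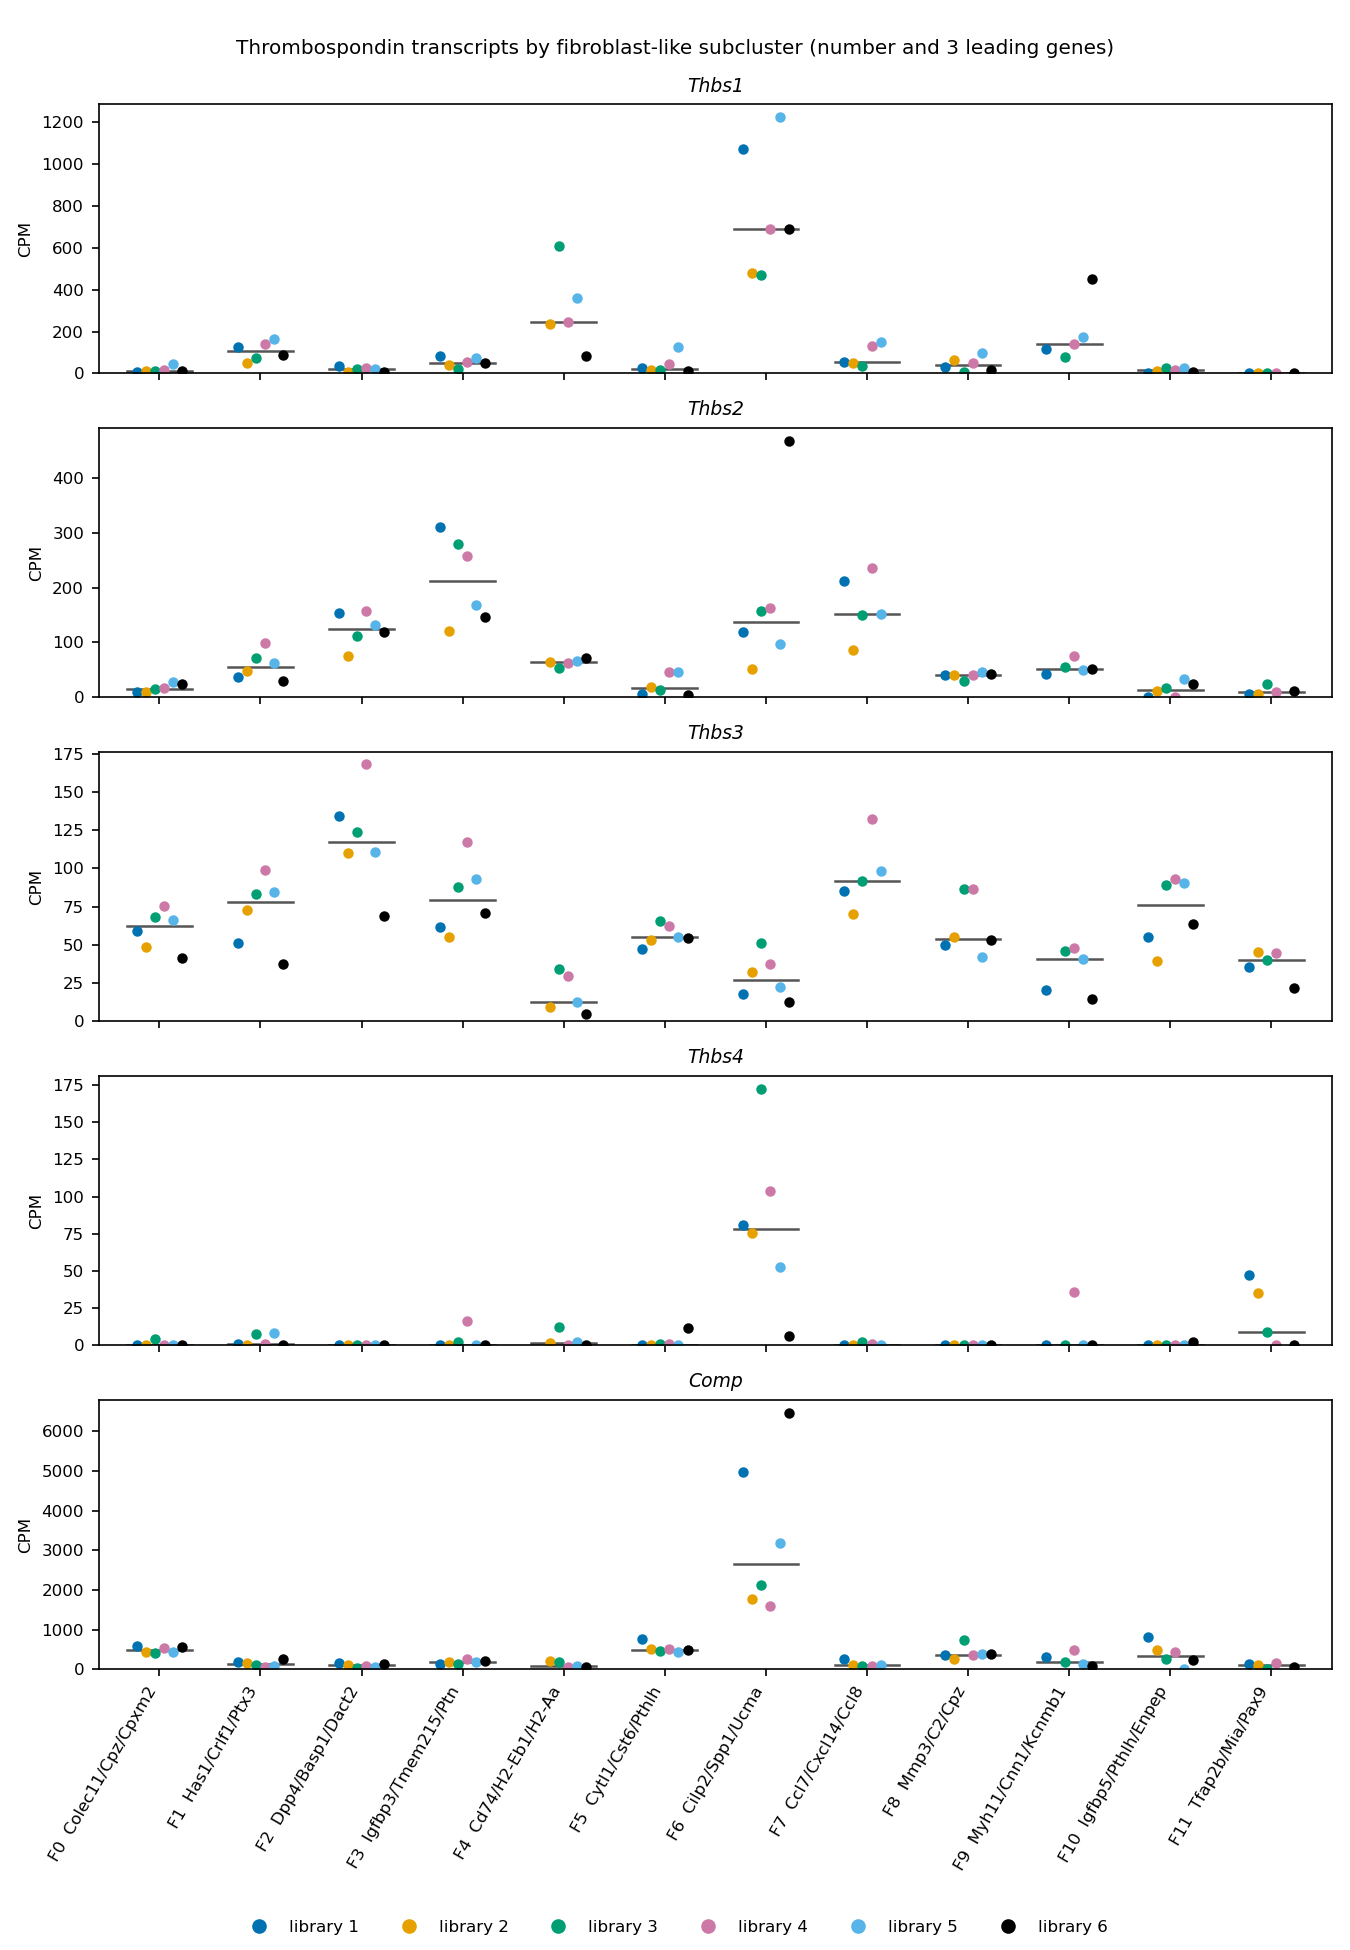
Level of each thrombospondin gene (CPM, linear axes of different height) in the fibroblast-like subclusters F0 to F11, with 1 point per library with at least 20 cells and a bar at their median. F6 has the highest Comp, Thbs1 and Thbs4 medians (2656, 689 and 78.2 CPM), F3 the highest Thbs2 median (213 CPM) and F2 the highest Thbs3 median (117 CPM).

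Members were also compared within the same cells, thinned to 3000 UMIs. Of 770 F6 cells, 453 held Thbs1 and 506 held Comp, and 326 held both, where independent occurrence of the same shares would give 298. Of the 80 F6 cells with Thbs4, 65 also held Comp and 58 Thbs1, against 52.6 and 47.1 from independent occurrence. In the other 11491 fibroblast-like cells 128 held both Thbs1 and Comp, below the 187 of independent occurrence, as 193 against 312 did for Thbs2 and Comp, whereas Thbs2 and Thbs3 were found together in 408 cells against 325. These counts pool libraries and subclusters and carry no test.

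Among VSMC-like cells, Thbs1 and Comp were much higher in VSMC2-like than in VSMC1-like cells, and Thbs3 was somewhat lower. Much of the Comp in VSMC-like cells lay in V7, a finer subcluster with many marked doublets, described below. The study set its VSMC1 and VSMC2 subclusters beside transcripts graded along the aorta, Enpep and Notch3 towards the root and Tes and Ptprz1 towards the distal ascending aorta. It also names Thbs1 among the genes with higher expression in its VSMC2 than in its VSMC1, so that direction was already reported. Here the cells were clustered without the members, and of 3 large subclusters the one with the most Enpep and Notch3 relative to Tes and Ptprz1 was called VSMC2-like (1826 cells). The other two were joined as VSMC1-like (8527 cells), and 17 cells led by cardiomyocyte genes were left out. The cells did not part into a pair of large subclusters at any resolution tried, so these groups may differ from those of the study.

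Thbs1 was at 254, 355 and 470 CPM in VSMC2-like cells and at 9.50, 17.2 and 26.6 CPM in VSMC1-like cells, without overlap. The rule of a median log2 ratio of at least 1 in every library was applied to 8044 genes with at least 10 CPM in either group. It was met by 3.94% in the higher direction, with Thbs1 and Comp among them, and by 2.35% in the lower, with no member. Comp reached 10 CPM only through VSMC2-like cells (92.9 against 8.28 CPM over summed libraries). Thinned to 3000 UMIs, 42.2% of VSMC2-like cells (39.9 to 44.6%) and 2.85% of VSMC1-like cells (2.50 to 3.24%) held a UMI, at median depths of 7099 and 7223 UMIs before thinning. In VSMC1-like cells the 1% of cells with the most held 59.1% of the Thbs1 UMIs, against 12.04% in VSMC2-like cells, so the low VSMC1-like level came mostly from few cells. Comp was at 35.4, 82.7 and 173 CPM in VSMC2-like cells and at 3.29, 7.52 and 13.7 CPM in VSMC1-like cells, and here the 1% of VSMC2-like cells with the most held 51.7% of the UMIs. VSMC2-like cells held 1340 Comp UMIs in all. Of the finer subclusters described below, V2 held 476 Comp UMIs and V7 held 864. In V7, 40.6% of cells were marked as doublets and fibroblast markers summed to 11682 CPM.

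Within libraries, the VSMC2-like over VSMC1-like log2 ratio was 4.36 for Thbs1 (3.97 to 4.73) and 3.42 for Comp (2.72 to 3.84), higher in 6 of 6 libraries. It was −0.60 for Thbs3 (−0.83 to −0.02), lower in 6 of 6, and −0.23 for Thbs2 (−0.52 to 0.26), lower in 4 of 6. Without libraries 2 and 6 the ratios were 4.09 for Thbs1, 3.34 for Comp, −0.42 for Thbs3 and −0.23 for Thbs2. Thbs4 had 3 UMIs in VSMC2-like and 4 in VSMC1-like cells and was given no ratio.

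At a finer resolution most of the Thbs1 in smooth muscle was in a single subcluster, V2, of 1488 cells led by Olfr558, Pgam2 and S1pr3. Its Thbs1 level was 269, 379 and 506 CPM, with a UMI in 59.9% of cells before thinning and 45.8% after it. V2 held 23.7% of all Thbs1 UMIs of the matrix. The log2 ratio to the other VSMC-like cells was 3.70 (3.54 to 4.46), higher in 6 of 6 libraries. The lowest Thbs1 level was in V0, the largest subcluster (3246 cells led by Ccdc42, Nrgn and Tes), at 1.15, 3.36 and 10.1 CPM. Between them V4 (967 cells led by Mt1, Gm17056 and Socs3) was at 24.4, 42.7 and 140 CPM and V3, V5 and V8 had medians of 12.04 to 12.6 CPM with overlapping ranges.

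Comp in smooth muscle was highest in V7, a subcluster of 342 cells led by the fibroblast genes Cygb, Abca8a and Clec3b, of which 40.6% were marked as doublets and whose fibroblast markers summed to 11682 CPM. There Comp was at 52.9, 206 and 612 CPM, and Thbs1 at 131, 248 and 412 CPM. In V2, Comp was at 10.6, 44.5 and 77.9 CPM, and in the other 7 subclusters with a library of 20 cells its median was at most 17.1 CPM. Without V7 the log2 ratio of Comp in VSMC2-like over VSMC1-like cells was 2.18, and with subclusters from log-normalized counts without integration it was 1.63, higher in 6 of 6 libraries in both cases. Thbs2 medians ran from 14.0 CPM in V2 to 30.5 CPM in V5 (Rgs5, Prrx2 and Dlx6) and Thbs3 medians from 6.84 CPM in V6 to 22.8 CPM in V1, with V2 lower than the rest in 6 of 6 libraries for both, by a log2 ratio of −0.57 for Thbs2 (−0.99 to −0.25) and −0.76 for Thbs3 (−0.92 to −0.43).

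**Figure D3:**
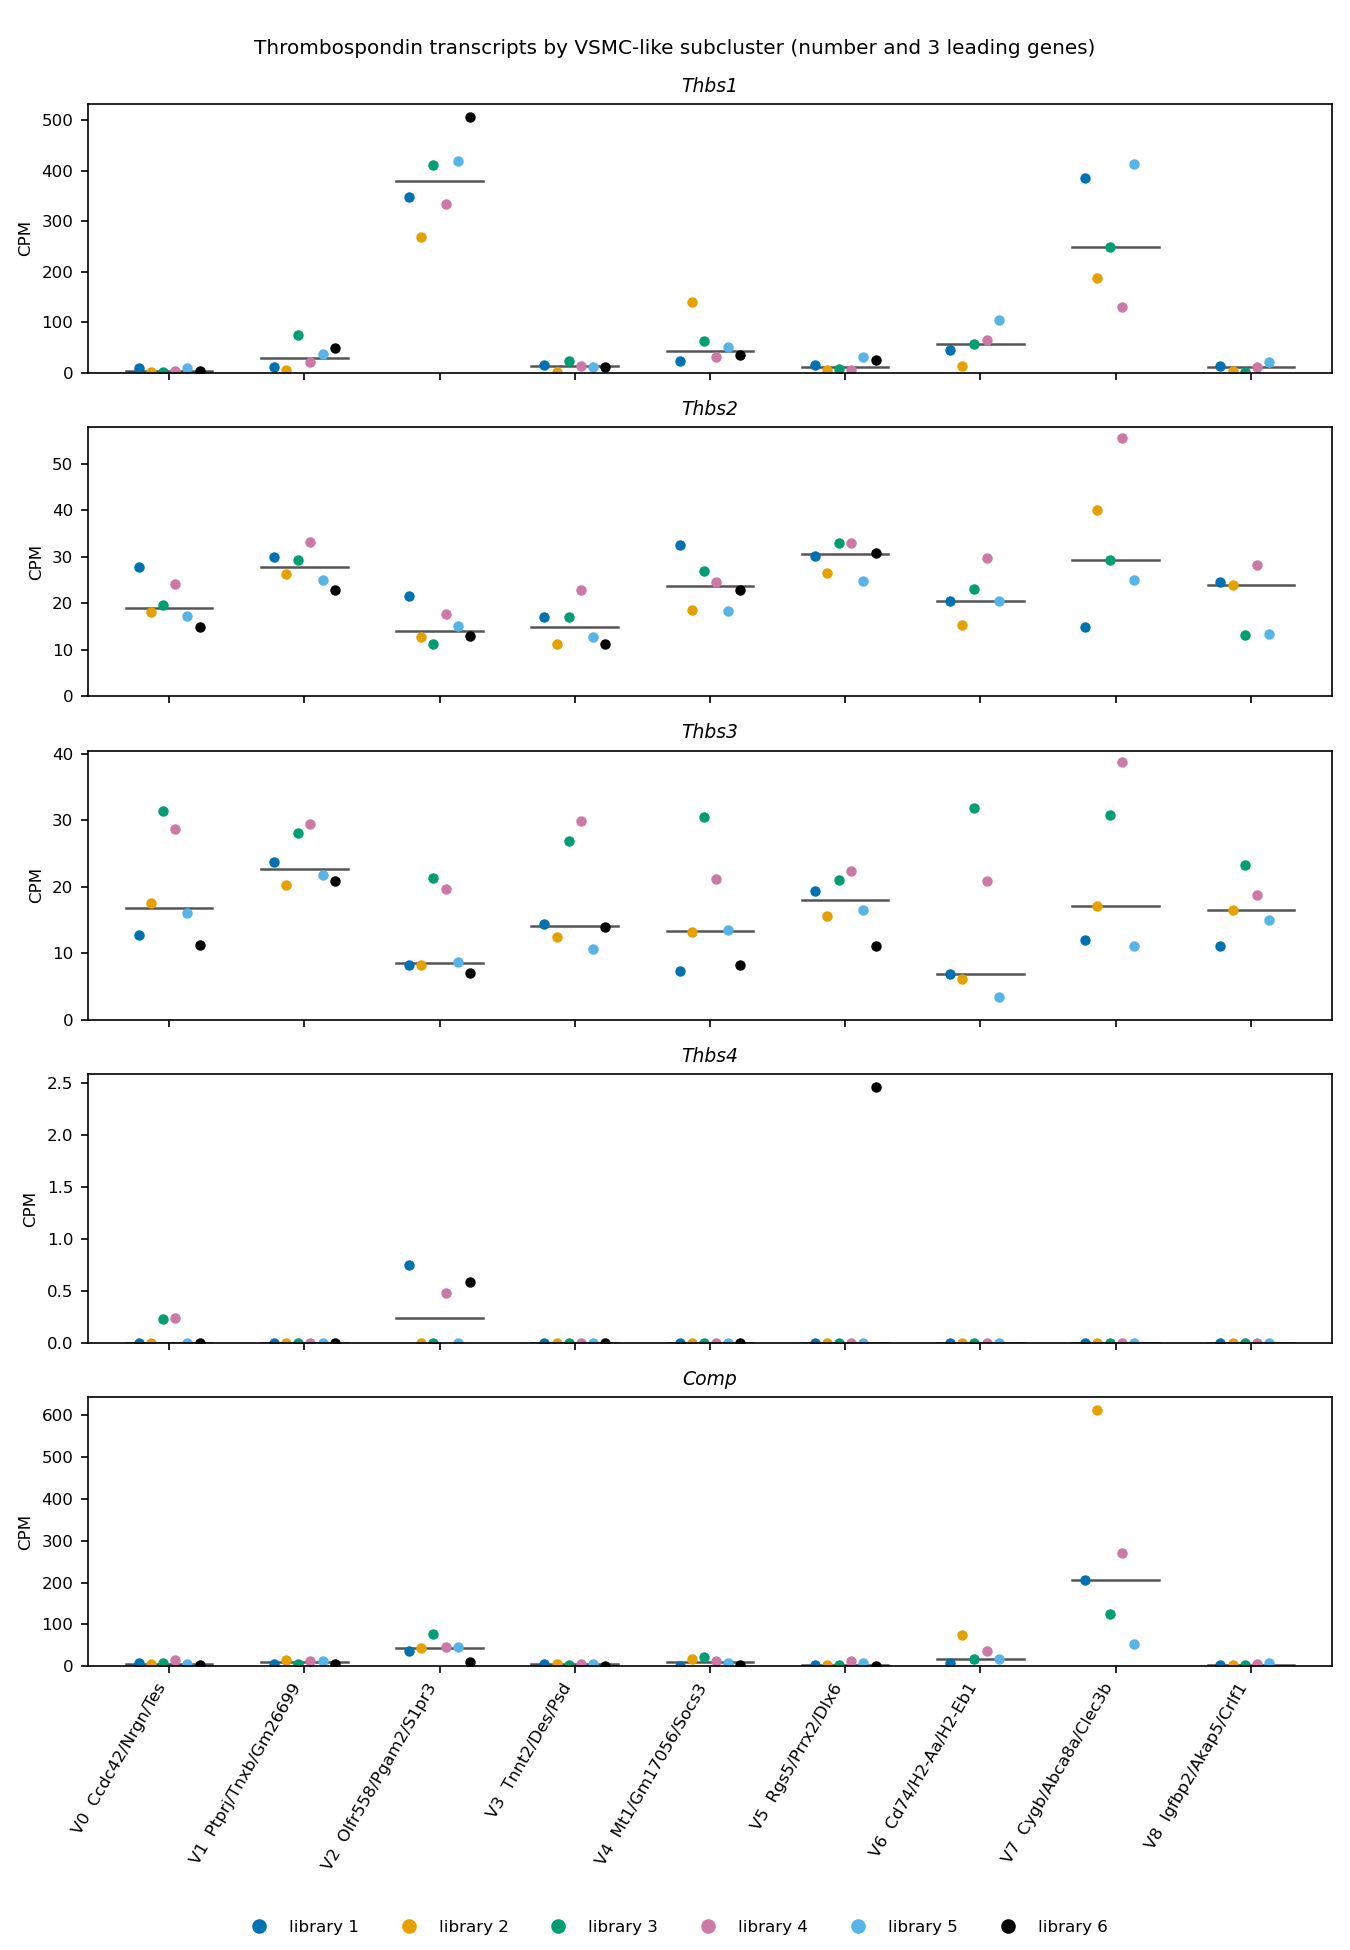
Level of each thrombospondin gene (CPM, linear axes of different height) in the VSMC-like subclusters V0 to V8, with 1 point per library with at least 20 cells and a bar at their median. Thbs1 is highest in V2 (median 379 CPM) and V7 (248 CPM), Comp in V7 (206 CPM), and Thbs2 medians lie between 14.0 and 30.5 CPM.

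Free RNA in droplets can give UMIs to cells that do not express a gene, so the levels in smooth muscle were set beside those of fibroblast markers, as shares of the fibroblast-like level in the same library. The 5 markers other than collagens were Dpt, Pdgfra, Dcn, Serpinf1 and Lum. In VSMC1-like cells Comp was at 1.72% of its fibroblast-like level, within their range of 0.963% to 2.43%, and in VSMC2-like cells it was at 16.9%, above their 6.05% (Dpt) to 12.6% (Lum). Thbs2 and Thbs3 in VSMC1-like cells were at 28.8% and 28.5%, near the collagens Col1a1 (25.3%) and Col3a1 (32.2%), which VSMCs also make. In VSMC2-like cells Thbs2 was at 27.8% and Thbs3 at 17.4%, beside 22.7% for Col1a1 and 29.9% for Col3a1. In V2 Comp was at a median of 10.9%, above the 1.32% to 4.75% of the 5 markers, but not in every library. Library 6 had 1.94% for Comp in V2 against 2.06% for Serpinf1. In V7 Comp was at 30.9%, within the markers' 29.1% (Dcn) to 47.1% (Lum). With cells marked as doublets removed, the log2 ratio of Comp in VSMC2-like over VSMC1-like cells was 3.38. That of V2 over the other VSMC-like cells was 0.95 (0.18 to 2.70), higher in 6 of 6 libraries, against 0.91 (−0.08 to 2.53) and 5 of 6 with them. The part of free RNA in the Comp level of VSMC2-like cells was not tested.

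**Figure D4:**
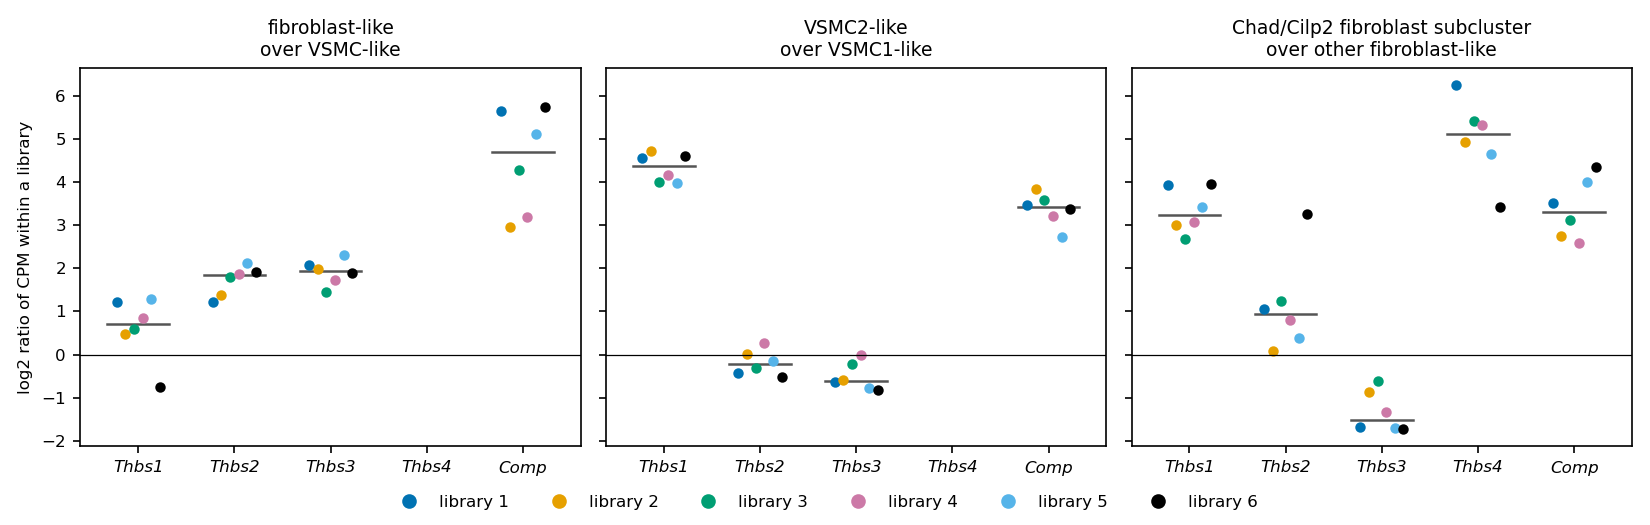
Log2 ratio of each thrombospondin gene within each library for fibroblast-like over VSMC-like, VSMC2-like over VSMC1-like and F6 over other fibroblast-like cells, with 1 point per library and a bar at the median. Thbs1 has points on both sides of 0 in the fibroblast-like over VSMC-like comparison (−0.76 in library 6) and lies between 3.97 and 4.73 in VSMC2-like over VSMC1-like. Thbs4 has no point where either group had under 10 UMIs.

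Thbs1 is an early-response gene, and enzymatic digestion is known to raise such transcripts, so a list of 23 dissociation genes was measured alongside. The list took a median of 1.09% of UMIs in VSMC1-like cells, 2.33% in VSMC2-like, 2.76% in F6 and 2.45% in other fibroblast-like cells. In VSMC2-like over VSMC1-like, 22 of its 23 genes were higher in every library and none lower, with a median log2 ratio of 0.98, from Egr2 (3.48) to Klf6 (−0.11). When VSMC1-like cells were split in 3 by that share within each library, Thbs1 was at 4.66, 12.2 and 39.8 CPM from the lowest to the highest, and VSMC2-like cells gave 233, 340 and 464 CPM. Comp was at 5.37, 6.58 and 11.7 CPM in the same parts of the VSMC1-like cells, and in VSMC2-like cells it went the other way, at 103, 94.8 and 27.7 CPM, with overlapping ranges over libraries. In F6, over the 4 libraries with enough cells, Thbs1 was at 519, 704 and 578 CPM. Thbs2 and Thbs3 did not follow the share in VSMC1-like cells, at 20.2, 21.8 and 21.6 CPM and 16.4, 17.8 and 13.8 CPM. With cells of both subclusters matched on the share, the VSMC2-like over VSMC1-like log2 ratio was 3.60 for Thbs1 and 2.97 for Comp, higher in 6 of 6 libraries for both.

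Receptors and surface partners of thrombospondins were measured as a list of 19 genes. Of the 17 with at least 10 CPM, 7 were higher and 9 lower in every library in fibroblast-like over VSMC-like cells, with a median log2 ratio of −0.67, against 38.0% higher, 34.6% lower and a median of 0.03 over all 8734 genes. Cd47, a receptor for thrombospondin-1, was at 408 CPM in fibroblast-like and 177 CPM in VSMC-like cells. Its counter-receptor Sirpa and the endocytic receptor Lrp1 had log2 ratios of 2.54 (2.18 to 3.06) and 2.06 (1.82 to 2.27), while the integrin subunits Itga3 and Itga4 had −3.73 (−4.40 to −2.86) and −3.09 (−4.45 to −2.46). Itgb1, the common integrin beta subunit, was at 440 CPM in fibroblast-like and 2043 CPM in VSMC-like cells.

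Between VSMC2-like and VSMC1-like cells 3 of 16 receptor genes were higher and 7 lower in every library, with a median log2 ratio of −0.23, against 12.5% higher, 22.8% lower and a median of −0.06 over the 7705 genes that reached 10 CPM in VSMC-like cells. Notch3, which binds thrombospondin-2, was the highest (2.99) but had served to name the subcluster. Sdc1 (syndecan-1) was at 26.8 CPM against 13.9 CPM, a log2 ratio of 1.09 (0.59 to 1.34). Itga9 and Itgb3 were at the other end, with −0.98 (−1.10 to −0.78) and −1.03 (−1.28 to −0.46). The same all-gene shares are the background of the other lists in this comparison. For fibroblast-like over VSMC-like cells it is 38.0% higher and 34.6% lower of 8734 genes.

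Genes of the latent TGF-beta complex, which thrombospondin-1 can open, were divided between the smooth muscle subclusters, with 2 of 7 higher and 3 lower in every library and a median log2 ratio of −0.05, which was −0.83 with subclusters from log-normalized counts and −0.80 without V7. The ligands Tgfb3 and Tgfb1 had 1.27 (1.02 to 1.32) and 0.55 (0.21 to 0.79), and the latent binding proteins Ltbp3 and Ltbp1 had −0.62 (−0.79 to −0.33) and −0.74 (−1.12 to −0.58). Of 7 TGF-beta and YAP target genes, 4 were higher and 1 lower in every library, with a median of 0.69. Ankrd1 was at 141 CPM in VSMC2-like against 26.2 CPM in VSMC1-like cells, a log2 ratio of 2.48 (0.32 to 2.85), whereas Skil had −0.15 (−0.24 to −0.03) and Ltbp2 −0.41 (−1.70 to 0.94). In fibroblast-like over VSMC-like cells the latent TGF-beta list had a median of 0.83, with 5 of 8 higher and 2 lower, from Lrrc32 (1.67) and Ltbp2 (1.56) to Tgfb2 (−0.84) and Ltbp1 (−1.26). The targets had a median of −0.03 (0.12 without libraries 2 and 6), with 3 of 8 higher and 2 lower, from Tgfbi (6.37) to Ankrd1 (−2.56).

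Only 3 cartilage matrix genes reached 10 CPM in VSMC-like cells, and VSMC2-like over VSMC1-like log2 ratios were 1.64 for Sox9, the chondrocyte transcription factor, higher in 5 of 6 libraries, 0.92 for Matn2 (0.49 to 1.07) and −0.24 for Prelp (−0.68 to −0.12). Their median of 0.92 became −0.13 without V7 and −0.24 at a minimum of 50 CPM. In fibroblast-like over VSMC-like cells all 9 genes of this list with at least 10 CPM were higher in every library, with a median of 4.80, from Cilp (7.39) and Chad (6.75) to Matn2 (3.09) and Prelp (0.83). Genes of endoplasmic reticulum stress, a response in which thrombospondin-4 has a known intracellular role, had a median of −0.14 in VSMC2-like over VSMC1-like cells, with 3 of 10 higher and none lower in every library. Ddit3 (0.83) and Dnajb9 (0.48) were at its upper end and Creld2 (−0.29) and Sdf2l1 (−0.43) at its lower. In fibroblast-like over VSMC-like cells 9 of the 10 were higher in every library, with a median of 0.95, from Sdf2l1 (2.05) and Dnajb9 (1.67) to Xbp1 (0.62) and Atf6 (0.09). The dissociation list had a median of 0.77 there, with 14 of 23 higher and 1 lower, from Egr2 (2.79) and Klf4 (2.53) to Btg2 (−0.22) and Klf6 (−0.37).

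**Figure D5:**
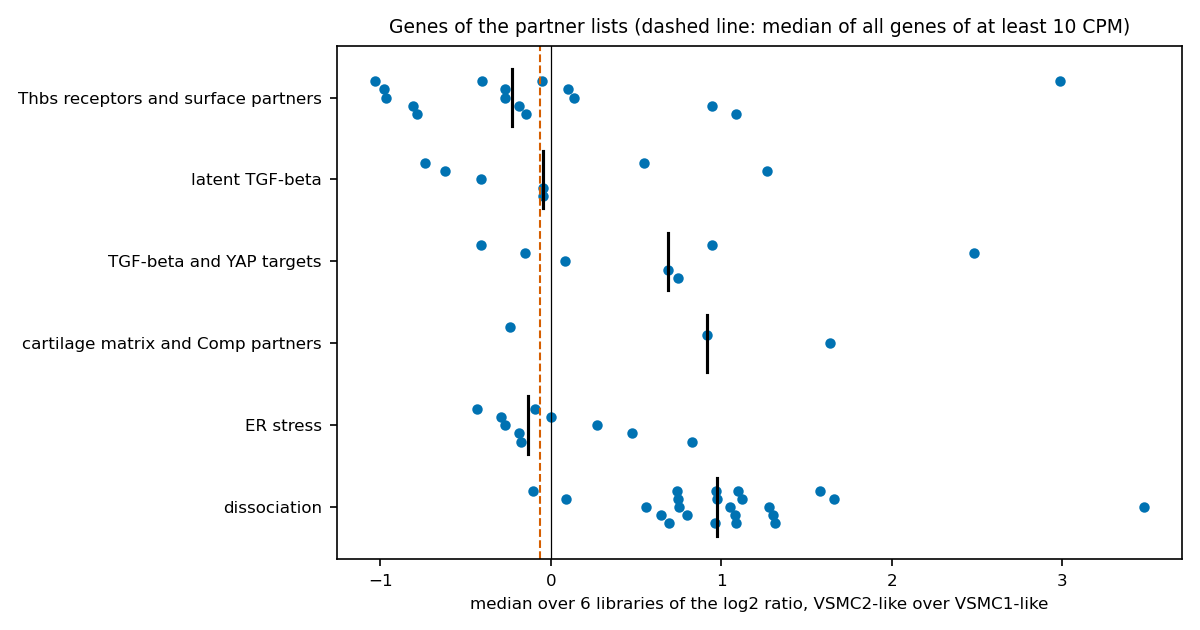
Log2 ratio between VSMC2-like and VSMC1-like cells, as the median over libraries, for each gene with at least 10 CPM, by gene list, with 1 point per gene, a bar at the median of the list and a dashed line at the median of all genes (−0.06). The dissociation list lies almost wholly above 0 (median 0.98), and the receptor list has a median of −0.23.

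Finally, the genes whose levels followed each member most closely were found over 124 points, each a subcluster or class of at least 30 cells in 1 library, among 10329 genes. The points share libraries, depth and the subclusters, and the correlations of log2(CPM + 1) are descriptions. Thbs1 was followed most closely by Tbx20 (Pearson r = 0.73), Col8a1 (0.70), Cdkn2c (0.67), Ddah1 (0.65) and Pbx3 (0.64). For Thbs2 these were Tmem45a (0.74), Rhou (0.71), Il1r1 (0.70), Spry2 (0.70) and Tst (0.69), and for Thbs3 Olfml2b (0.89), Gas1 (0.88), Col3a1 (0.87), Col6a1 (0.86) and Medag (0.86). The genes nearest to Comp included Lum (0.85), Dcn (0.84), Serpinf1 (0.84) and Adamtsl2 (0.84), and Thbs4 was followed by Cilp2 (0.70), Ucma (0.64), Hapln1 (0.56), Chad (0.54) and Col11a1 (0.54). Between members, r was 0.53 for Thbs2 and Thbs3, 0.54 for Comp and Thbs3, 0.39 for Thbs1 and Thbs2 and −0.04 for Thbs1 and Thbs3.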

How the data were processed

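The single-cell libraries (10x Genomics 3′ v3, 1 per mouse, prepared on several days not given per library) were aligned to mm10 and aggregated by the authors with Cell Ranger, version 6 per the submitters' processing notes and 4.0.0 per the matrix header. The authors deposited the UMI counts as 1 matrix of 31055 features and 30716 barcodes, without normalization. Whether depth was equalized on aggregation is not given in the sources used here.

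The cell filter was that of the study's methods, with bounds of 1000 and 5000 for genes, 1500 and 25000 for UMIs and 20% for the mitochondrial share, and left 24972 cells. Seurat 5.3.0 (SCTransform v2, sctransform 0.4.2, R 4.3.3) normalized each library on 3000 variable genes, and RPCA integration over libraries with 30 principal components preceded clustering at a resolution of 0.25. That clustering could use the members. VSMC-like and fibroblast-like cells were clustered again at 0.3 without 107 genes of the members, lists and naming transcripts. VSMC1-like and VSMC2-like came from a resolution of 0.05, the first that gave more than 2 subclusters of at least 5%. Of these 3, the one with the highest Enpep and Notch3 relative to Tes and Ptprz1 was VSMC2-like, and the other two were joined as VSMC1-like. A cluster was named when at least 3 of its markers were in at least 10% of its cells and above 1.5 times the median cluster. Doublets were marked by scrublet (scanpy 1.11.5) in libraries 1, 3, 4 and 6. In libraries 2 and 5, where under 0.5% were marked, the top 5% of scores were used, and marked cells stayed in the main values.

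UMIs were summed per group and library and divided by all UMIs of the group (CPM). A log2 ratio within a library used a prior of 0.5 UMI, and its median over 6 libraries is reported, so it need not equal the ratio of the CPM medians. Medians of CPM use libraries with at least 20 cells of the group. For ratios, the minimum of 10 CPM over summed libraries had to be reached in either of the groups compared. For gene lists in VSMC2-like over VSMC1-like cells it had to be reached in VSMC-like cells. No p-value was computed, because the genotype of each library is unknown and the 6 cannot be taken as replicates. The ratio was tested on simulated data with known fold changes. Shares of cells with a UMI in the classes and in VSMC1-like and VSMC2-like cells were computed after thinning to 3000 UMIs, without shallower cells. Those of single subclusters, and the Thbs4 limit in leukocyte-like cells, used all UMIs and cells unless said otherwise. Intervals are 95% exact binomial and cover counting error only. A gene was named if it was a member, 1 of the 5 genes most correlated with a member, 1 of the 2 largest or 2 smallest ratios of a gene list (every gene of lists with 6 or fewer) or 1 of the 3 leading genes of a subcluster. Cd47, Itgb1, the cartilage genes given for F6 and the fibroblast markers were named after their values were seen. Some genes that the rule names are not reported here. The members and lists were chosen with earlier results of these data known. Ccn1 and Ccn2 are Cyr61 and Ctgf in the files, and Ctgf could be used in the clustering. Alternatives were another normalization, doublets removed, summed libraries, each library left out, thinning, mitochondrial UMIs under 10%, a prior of 5 UMIs, a minimum of 50 CPM and matching on dissociation genes.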

Additional observations from a re-analysis of the deposited data

Results flagged for a closer look

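The log2 ratio of Thbs2 in F6, the fibroblast-like subcluster with the highest Chad and Cilp2, over the other fibroblast-like cells was 3.25 in library 6, far from the 0.08 to 1.24 of the other 5 libraries. Its gap to the next library took 0.635 of the whole range, just past Dixon's 95% limit for 6 values, which chance passes in about 1 of 20 groups. Library 6 had 27 cells in F6 with 146 Thbs2 UMIs, of which 91 were in 1 cell. The libraries mix genotypes that could not be told apart here.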

How the results depend on the processing

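Of 424 values of 45 results under the alternatives, 406 moved by less than the spread between libraries, and 18 moved further, of which the cartilage list in VSMC2-like over VSMC1-like cells changed sign. No paired analysis was possible because no library could be matched to a replicate number. The cause was not tested for any that moved. The VSMC2-like over VSMC1-like log2 ratio of Comp (3.42) was 1.63 on log-normalized counts without integration, 2.18 without the subclusters V7, F9 and F12 (chosen after seeing the data) and 2.97 in cells matched on dissociation genes. That of Thbs1 (4.36) was 3.60 in matched cells, and that of Thbs2 (−0.23) was −0.53 without V7, F9 and F12.

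For the receptor list in the same comparison (−0.23) the median was −0.30 with doublets removed, −0.29 after thinning, −0.29 without V7, F9 and F12, −0.17 at a minimum of 50 CPM and −0.23 to −0.18 with each library left out. For the latent TGF-beta list (−0.05) it was −0.83 on log-normalized counts and −0.80 without V7, F9 and F12. For the cartilage list (0.92, over 3 genes) it was −0.13 without V7, F9 and F12 and −0.24 at 50 CPM. In fibroblast-like over VSMC-like cells the receptor list (−0.67) gave −0.77 with UMIs summed over libraries, −0.77 after thinning and −0.16 at 50 CPM. Leaving out libraries 2 and 6 was also chosen after seeing the data. The median of the TGF-beta and YAP target list in fibroblast-like over VSMC-like cells, −0.03, lay between −0.14 and 0.12 under these settings, on either side of 0. Depth limited Thbs4, for which no VSMC2-like over VSMC1-like ratio was given.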
